A study of Mus musculus with 16 samples.

Results

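Mouse liver tumors carrying a mutated Ctnnb1 were compared directly with tumors carrying a mutated Ha-ras by the protein and phosphorylation signals of a reverse-phase protein array, which holds spots of tissue lysate that are probed with 1 antibody at a time. The samples were chosen by their titles, 7 Ctnnb1-mutated and 3 Ha-ras-mutated tumors, which are 10 of the 16 samples of the study. The other 6 are control livers, 3 from mice given phenobarbital (PB) and 3 from mice without it, and their values are given beside the tumors. All animals were male C3H/HeJ mice, and the description of the series gives them 1 injection of diethylnitrosamine (DEN), a liver carcinogen, at 10 or 90 µg per g of body weight and an age of 2 or 6 weeks. All Ctnnb1 tumors came from mice on PB and all Ha-ras tumors from mice without it, so genotype and PB cannot be told apart in the direct comparison. The labels do not say which dose and age each sample had, so these may differ between the groups too. The PB treatment is described as a 0.05% diet for 28 to 36 weeks, as 27 weeks, and as 28 days in drinking water in different fields. How the mutations were determined, the tumors' stage and whether each tumor came from its own animal are not stated in the labels, so p-values reflect sample-to-sample spread that may in part be technical.

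Beta-catenin, the product of Ctnnb1, is the transcriptional effector of Wnt signalling. In liver it is active in hepatocytes around the central vein, where glutamine synthetase and several cytochromes P450 are made. Ha-ras is a GTPase that, when active, switches on a kinase cascade that runs through MEK to ERK, and ERK phosphorylates the ribosomal S6 kinases of the RSK family. PB induces drug-metabolising enzymes in hepatocytes by way of the nuclear receptor CAR, and it is known to favour the growth of Ctnnb1-mutated over Ha-ras-mutated tumors in mouse liver.

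The array held 158 antibodies, 50 of them against a phosphorylation site. Signals are given here as the relative fluorescence divided by that of the sample's median antibody, so a value of 1 stands for the median antibody. That median lay between 0.532 and 0.791 fluorescence units in the Ctnnb1 tumors and between 0.469 and 0.545 in the Ha-ras tumors (means 0.634 and 0.494, two-sided exact permutation p = 0.0333 over 120 assignments). The median of the blanks, wells with secondary antibody only, lay between 0.0928 and 0.121 in the Ctnnb1 tumors and between 0.0811 and 0.125 in the Ha-ras tumors (p = 0.5 in the same exact test). An antibody is called dim in a sample where it read below 2 times its blank. In all 10 tumors, 102 antibodies were above that limit and 12 were dim. Of the cell type markers looked for, only those of hepatocytes were on the array (CYP2E1, GLUL and HNF4A, 4 antibodies, all detected in tumors of either genotype), and no marker of bile duct, endothelial, stellate or blood cells. Other cell types could not be checked, and fewer hepatocytes in a tumor cannot be told apart from less protein per hepatocyte. The number of samples limits the precision.

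In the direct comparison, 30 of 158 antibodies (19.0%) passed an adjusted p of 0.05 in limma, of which 9 (5.70%) were higher and 21 (13.3%) were lower in the Ctnnb1 tumors. At an unadjusted p under 0.05 there were 46. All 9 higher calls were antibodies to metabolic enzymes. Of the 21 lower calls, 13 were against phosphorylation sites, to which 50 of all 158 antibodies were directed. The samples of the 2 genotypes did not overlap at all for 25 antibodies (15.8%), 9 higher and 16 lower. Log2 differences below are Ctnnb1 minus Ha-ras tumors, with limma's standard error and, unless said otherwise, n = 7 and 3. That error pools the spread of the tumors with that of the control livers. The median log2 standard deviation of an antibody was 0.213 in the Ctnnb1 and 0.205 in the Ha-ras tumors. In the control livers it was 0.108 with PB and 0.144 without it. Errors, p-values and intervals of the tumor differences can therefore be too small.

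Among the perivenous products of beta-catenin activity, 4 of 5 antibodies were higher in the Ctnnb1 tumors and 1 did not pass, where 5.70% of all antibodies were higher. These are differences between the tumors, and each tumor group is set against its control livers below. Glutamine synthetase (GLUL), which makes glutamine from ammonia in hepatocytes next to the central vein, gave signals in the 7 Ctnnb1 tumors of -0.044 at the lowest, 58.1 at the median and 91.6 at the highest. In Ha-ras tumors 1, 2 and 3 it gave 6.55, 0.111 and 0.0596, the last 2 of which were dim. The groups overlapped because of Ctnnb1 tumor 6, whose value of -0.044 has no logarithm and was missing in the fit. Over the other 6 tumors the log2 difference was 7.25 ± 1.26 (limma adjusted p = 0.000613). Its size is uncertain, since it was 9.37 without Ha-ras tumor 1, 6.42 without Ha-ras tumor 2 and 5.98 without Ha-ras tumor 3. With Ctnnb1 tumor 6 set to the lowest positive signal, GLUL no longer passed (log2 5.74, adjusted p = 0.0504).

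CYP1A2 and CYP2E1 are P450 enzymes that metabolise caffeine and ethanol, among other substrates. CYP1A2_1 (a final number tells apart antibodies to the same protein) ranged from 1.92 to 37.2 in the Ctnnb1 tumors, with a median of 22.9. It gave 0.915, 1.20 and 1.33 in the Ha-ras tumors, so every Ctnnb1 tumor was above every Ha-ras tumor. It was 14.5-fold higher (log2 3.86 ± 0.63, limma adjusted p = 0.000287). CYP2E1_2 ranged from 10.1 to 49.3 with a median of 32.5 in the Ctnnb1 tumors, and gave 3.28, 4.70 and 3.76 in the Ha-ras tumors. The groups did not overlap, and the antibody was 7.41-fold higher (log2 2.89 ± 0.43, adjusted p = 0.000174 in limma). CYP2E1_1, a second antibody to the same enzyme, was 5.24-fold higher (log2 2.39 ± 0.36), with 0.703 to 2.82 in the Ctnnb1 tumors and 0.380, 0.283 and 0.379 in the Ha-ras tumors. Each CYP2E1 antibody was dim in 1 Ha-ras tumor, and with the blank subtracted the log2 difference was 4.29 for CYP2E1_2 and 3.14 for CYP2E1_1. CYP1A2_2 did not follow CYP1A2_1, with a log2 difference of 0.07 ± 0.15 (95% interval -0.25 to 0.39), and was dim in 2 Ctnnb1 tumors and 1 Ha-ras tumor.

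Because these proteins were higher together, the 250 bases upstream of the mouse gene starts are shown, read from RefSeq's GRCm38.p6 table, 5′ to 3′ on the gene's strand. Capitals mark the core motif of the TCF/LEF factors, beta-catenin's DNA-binding partners, searched as CTTTGA on both strands (TCAAAG on the other strand). It was found once in the Cyp1a2 window, once in the Cyp2e1 window and not in the Glul window, and 13.8% of 32851 such windows in the table hold it. The array measured no binding, and the matches are a description of these letters. The windows are chr1:153899679-153899928 (plus strand) for Glul, chr9:57683656-57683905 (minus strand) for Cyp1a2 and chr7:140763569-140763818 (plus strand) for Cyp2e1.
Glul: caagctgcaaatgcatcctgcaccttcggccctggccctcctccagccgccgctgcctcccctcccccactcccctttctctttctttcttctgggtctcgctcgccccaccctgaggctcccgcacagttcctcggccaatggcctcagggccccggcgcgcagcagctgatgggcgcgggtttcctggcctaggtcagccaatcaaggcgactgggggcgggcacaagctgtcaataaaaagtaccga
Cyp1a2: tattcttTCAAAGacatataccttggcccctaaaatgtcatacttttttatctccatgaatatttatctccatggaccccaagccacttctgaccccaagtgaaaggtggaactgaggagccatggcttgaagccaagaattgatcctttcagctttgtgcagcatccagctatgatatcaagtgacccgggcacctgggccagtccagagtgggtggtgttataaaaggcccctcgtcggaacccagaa
Cyp2e1: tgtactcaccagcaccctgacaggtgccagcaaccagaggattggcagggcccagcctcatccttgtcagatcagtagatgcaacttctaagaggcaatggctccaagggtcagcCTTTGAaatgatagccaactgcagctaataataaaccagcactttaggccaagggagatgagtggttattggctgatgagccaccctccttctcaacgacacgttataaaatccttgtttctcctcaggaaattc

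Of the 16 antibodies to cytochromes P450 and their reductase POR, 8 were higher in the Ctnnb1 tumors, none was lower and 8 did not pass, against 5.70% of all antibodies higher. Their median log2 difference was 1.10, where that of all 158 antibodies was -0.11. Besides the 3 already described, these were antibodies to the CYP2B, CYP2C and CYP3A families, which PB induces, and POR, which passes electrons to all microsomal P450 enzymes. The array names CYP2B6, CYP2C8 and CYP3A4 are human symbols, and which mouse protein each antibody bound is not known. CYP2C8 ranged from 7.45 to 15.4 with a median of 11.9 in the Ctnnb1 tumors and gave 1.04, 0.829 and 1.01 in the Ha-ras tumors. The groups stood far apart, and this was the call with the smallest adjusted p, 12.1-fold higher (log2 3.59 ± 0.21, limma adjusted p = 8.67e-09). POR ranged from 24.4 to 48.7 with a median of 42.0 in the Ctnnb1 tumors and gave 10.7, 10.0 and 8.12 in the Ha-ras tumors. Again no sample overlapped, and POR was 3.80-fold higher (log2 1.93 ± 0.21, adjusted p = 7.12e-06 in limma).

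CYP2B6_3 gave 301.7 to 459.8 with a median of 388.4 in the Ctnnb1 tumors, and 7.21, 0.248 and -18.9 in Ha-ras tumors 1, 2 and 3. The last value has no logarithm and was missing in the fit, and Ha-ras tumors 2 and 3 were dim. The log2 difference was 8.19 ± 0.78 over the 7 Ctnnb1 and 2 remaining Ha-ras tumors (limma adjusted p = 2.75e-06), and its size depended on them, with 10.62 without Ha-ras tumor 1 and 5.76 without Ha-ras tumor 2. CYP2B6_1 ranged from 0.788 to 2.40 in the Ctnnb1 tumors and gave 0.572, 0.565 and 0.421 in the Ha-ras tumors. It was 2.84-fold higher, with no overlap (log2 1.50 ± 0.24, adjusted p = 0.000287 in limma). CYP2B6_2 gave 0.04 ± 0.13 (95% interval -0.25 to 0.32), so the 3 antibodies to this protein gave 3 different sizes. CYP3A4_2 ranged from 0.930 to 7.40 in the Ctnnb1 tumors against 0.552, 0.535 and 0.908 in the Ha-ras tumors, of which 2 were dim. It passed as higher (log2 2.23 ± 0.56, adjusted p = 0.00945 in limma), the groups lying next to each other at 0.930 and 0.908, but its size is uncertain and was 3.17 with the blank subtracted. CYP3A4_1 was also above every Ha-ras tumor in each Ctnnb1 tumor but did not pass (log2 0.44 ± 0.18, adjusted p = 0.117). It passed with scaling to the Alexa647 rows (0.62, adjusted p = 0.0365) and without centring (0.70, adjusted p = 0.0168).

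**Figure D1:**
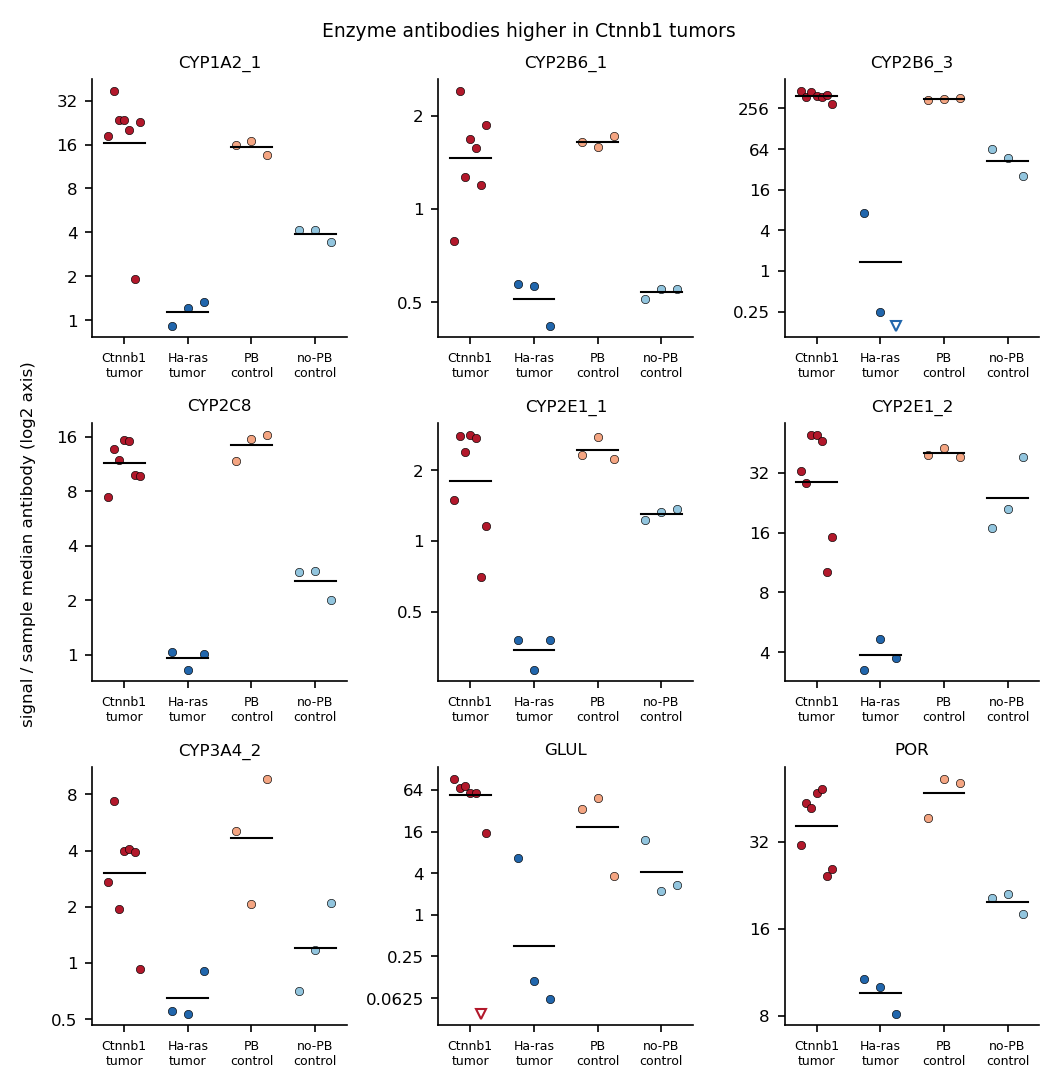
Signal divided by the sample's median antibody, on a log2 axis, for the 9 enzyme antibodies that were higher in Ctnnb1 tumors. Points are samples (7 Ctnnb1 tumors, 3 Ha-ras tumors, 3 PB and 3 no-PB control livers), lines are means of the log2 values, and open triangles at the lower edge mark values below 0. Every Ctnnb1 tumor lies above every Ha-ras tumor except for GLUL, where Ctnnb1 tumor 6 is at -0.044.

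The Ctnnb1 tumors were not alike in these enzymes, a description made after their values had been seen. Tumor 6 was the lowest of the 7 for GLUL (-0.044), CYP1A2_1 (1.92), CYP2E1_1 (0.703), CYP2E1_2 (10.1) and POR (24.4). Tumor 7 was the next lowest for GLUL (15.3), CYP2E1_1 (1.15), CYP2E1_2 (15.2) and POR (25.8), and the lowest for CYP3A4_2 (0.930) and CYP2B6_3 (301.7). Tumor 6 was not low for CYP2B6_3, at 405.4, nor was tumor 7 for CYP1A2_1, at 22.9. The low values therefore did not fall on the same tumor for every enzyme. The 9 enzyme calls passed in each fit with 1 sample left out, in all of which Ctnnb1 tumor 6 was missing for GLUL, whose call was lost once the tumor was given a value, as described above. Among the Ha-ras tumors, tumor 1 had the highest GLUL and CYP2B6_3, at 6.55 and 7.21.

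The Ras to ERK cascade was asked about because Ha-ras acts through it. Of its 10 antibodies 3 were lower in the Ctnnb1 tumors, none was higher and 7 did not pass, against 13.3% of all antibodies lower. The 3 were all phosphorylation sites, 2 of which are described here. The activating site of ERK1 (MAPK3_P-T202/Y204), the last kinase of the cascade, had signals in the Ctnnb1 tumors of 1.96 at the lowest, 2.52 at the median and 3.03 at the highest. It gave 13.0, 17.7 and 7.22 in the Ha-ras tumors. The lowest Ha-ras tumor was thus above the highest Ctnnb1 tumor, and the site was 4.71-fold lower in the Ctnnb1 tumors (log2 -2.24 ± 0.20, limma adjusted p = 1.21e-06). This was the largest difference among the lower calls. The log2 standard deviation of the site was 0.656 in the Ha-ras and 0.199 in the Ctnnb1 tumors. Its printed error, which pools all groups, is thus smaller than the spread of the Ha-ras tumors alone would give. The activating site of MEK1 (MAP2K1_P-S217/S221), the kinase that phosphorylates ERK, ranged from 0.421 to 0.590 with a median of 0.483 in the Ctnnb1 tumors. In the Ha-ras tumors it gave 0.941, 1.26 and 0.713. The groups did not overlap, and it was 1.95-fold lower (log2 -0.96 ± 0.15, adjusted p = 0.000192 in limma).

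The total proteins of the cascade given here did not pass. HRAS itself, which the antibody reads without regard to mutation or activity as far as the label says, had a log2 difference of -0.15 ± 0.11 (95% interval -0.38 to 0.08). That of MAPK3 was -0.15 ± 0.16 (-0.48 to 0.18). MEK1 (MAP2K1) gave -0.23 ± 0.19 (-0.64 to 0.19) and MEK2 (MAP2K2) -0.13 ± 0.12 (-0.38 to 0.12). MAP2K1 passed under quantile normalization alone (log2 -2.48), and the site BRAF_P-S445 was dim in all 10 tumors.

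Of 11 antibodies to proteins that act after ERK, 3 were lower, all of them sites on RSK kinases, and 8 did not pass (13.3% of all antibodies were lower). RPS6KA1_P-T573, the site that ERK phosphorylates on RSK1, ranged from 2.18 to 3.19 with a median of 2.42 in the Ctnnb1 tumors. In the Ha-ras tumors it gave 4.90, 5.46 and 5.44. These 3 values lay close together and above all Ctnnb1 tumors, and the site was 2.14-fold lower in the latter (log2 -1.09 ± 0.11, limma adjusted p = 2.75e-06). RPS6KA3_P-T353/T356, a site pair on RSK2, ranged from 0.373 to 0.535 with a median of 0.428 in the Ctnnb1 tumors and gave 0.922, 0.733 and 1.11 in the Ha-ras tumors. It was 2.08-fold lower with no overlap (log2 -1.06 ± 0.14, adjusted p = 5.35e-05 in limma). RPS6KA1_P-S380, a second RSK1 site, gave 0.572 to 0.849 in the Ctnnb1 tumors and 1.96, 1.35 and 0.857 in the Ha-ras tumors, the last only just above the Ctnnb1 tumors. It was 1.86-fold lower (log2 -0.90 ± 0.21, adjusted p = 0.00482) and did not pass without centring (adjusted p = 0.0681). Total RSK1 (RPS6KA1) gave a log2 difference of -0.21 ± 0.18 and passed under quantile normalization alone (-1.13, adjusted p = 0.00984).

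**Figure D2:**
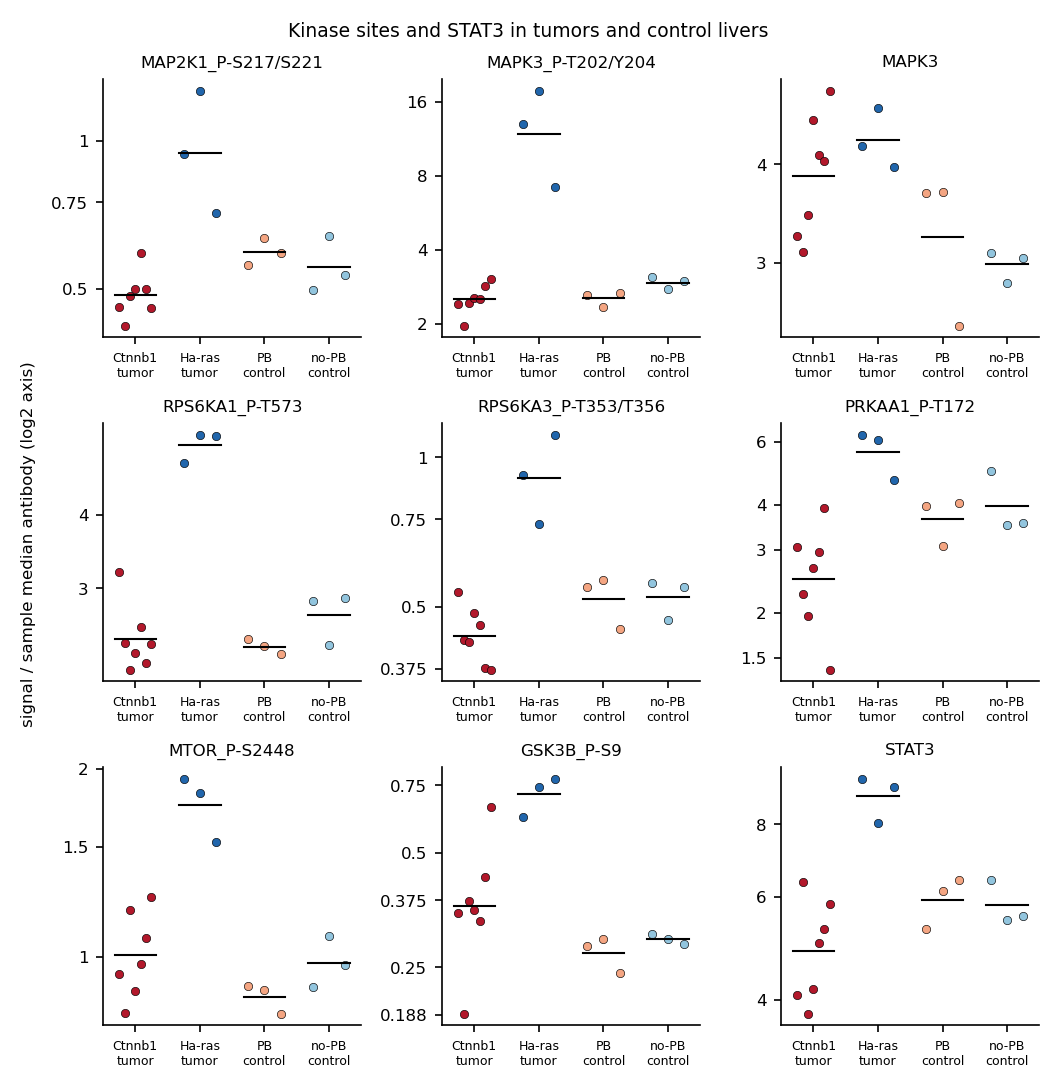
Signal divided by the sample's median antibody, on a log2 axis, for 7 phosphorylation sites, total ERK1 (MAPK3) and total STAT3. Points are samples and lines are means of the log2 values for 7 Ctnnb1 tumors, 3 Ha-ras tumors, 3 PB and 3 no-PB control livers. The Ha-ras tumors stand above the Ctnnb1 tumors in every panel but MAPK3 and, for Ctnnb1 tumor 7 at 0.659, GSK3B_P-S9.

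Beta-catenin and the proteins that control its breakdown showed 1 lower call among 6 antibodies, where 13.3% of all antibodies were lower. Glycogen synthase kinase 3 beta marks beta-catenin for degradation and is inhibited by phosphorylation at serine 9. That site, GSK3B_P-S9, ranged from 0.189 to 0.659 with a median of 0.353 in the Ctnnb1 tumors. It gave 0.619, 0.745 and 0.779 in the Ha-ras tumors, so Ctnnb1 tumor 7 overlapped with them. The site was 1.97-fold lower (log2 -0.97 ± 0.25, limma adjusted p = 0.0108), was dim in 2 Ctnnb1 tumors, and was lost without Ha-ras tumor 3 (adjusted p = 0.0567) and with the blank subtracted (adjusted p = 0.0538). Total GSK3B gave -0.28 ± 0.10 and stood at the threshold (adjusted p = 0.0518). Among other alternatives, it passed as lower under quantile normalization (-0.40, limma adjusted p = 0.00547) and without Ha-ras tumor 1 (-0.37, adjusted p = 0.0225). Total beta-catenin (CTNNB1) varied widely among the Ctnnb1 tumors, from 1.65 in tumor 5 to 7.94 in tumor 7 with a median of 3.44, and gave 7.92, 6.68 and 7.98 in the Ha-ras tumors. It did not pass (log2 -0.94 ± 0.36, adjusted p = 0.0804), but did without Ctnnb1 tumor 7 (-1.11, adjusted p = 0.0248), under quantile normalization (-1.24, adjusted p = 0.0184) and with array weights (-1.04, adjusted p = 0.0441). The log2 difference of CTNNB1_P-S675 was -0.25 ± 0.18 and that of CTNNB1_P-T41/S45, sites whose phosphorylation precedes degradation, was -0.13 ± 0.16. CTNNB1_P-S675 passed as lower with the replicate number as a block (-0.45, limma adjusted p = 0.028).

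Of 18 antibodies to PI3K, Akt, mTOR and translation proteins, 4 were lower and 14 did not pass, beside 13.3% lower of all antibodies. MTOR_P-S2448, on the growth kinase mTOR, ranged from 0.814 to 1.25 in the Ctnnb1 tumors and gave 1.92, 1.83 and 1.52 in the Ha-ras tumors. It was 1.74-fold lower without overlap (log2 -0.80 ± 0.13, limma adjusted p = 0.000287). PDK1_P-S241 gave 6.48 to 7.32 against 8.58, 9.22 and 10.3, and was 1.35-fold lower (log2 -0.43 ± 0.08, adjusted p = 0.00124). The translation initiation factor EIF2A gave 1.32 to 1.95 against 2.63, 2.24 and 1.99, and was 1.42-fold lower (log2 -0.51 ± 0.13, adjusted p = 0.0108). These 3 had no overlap between genotypes, but EIF2A was lost without Ha-ras tumor 1 (adjusted p = 0.0767). AKT1 (-0.01 ± 0.13), AKT1_P-S473 (-0.24 ± 0.16) and MTOR_P-S2481 (-0.23 ± 0.12) did not pass, nor did the totals MTOR (-0.26 ± 0.12) and PDK1 (0.01 ± 0.11, dim in all 3 Ha-ras and 4 of 7 Ctnnb1 tumors).

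In JAK and STAT signalling, which carries cytokine responses, 3 of 10 antibodies were lower and 7 did not pass, with 13.3% of the whole array lower. Total STAT3, a transcription factor activated by interleukin-6 in liver, ranged from 3.79 to 6.36 with a median of 5.00 in the Ctnnb1 tumors and gave 9.55, 8.05 and 9.28 in the Ha-ras tumors. It was 1.84-fold lower with no overlap (log2 -0.88 ± 0.15, limma adjusted p = 0.000424). STAT3_P-S727 gave 0.351 to 0.517 against 0.768, 0.613 and 0.708, and was 1.64-fold lower (log2 -0.72 ± 0.15, adjusted p = 0.00208), though dim in 3 Ctnnb1 tumors and 1 Ha-ras tumor. The activating site STAT3_P-Y705 did not pass, with a log2 difference of -0.03 ± 0.08 (95% interval -0.21 to 0.14). JAK1, the kinase upstream, gave 0.597 to 0.791 against 0.755, 0.818 and 1.08, with an overlap at Ha-ras tumor 1. Its call (log2 -0.33 ± 0.11, adjusted p = 0.0472) was lost in 13 of 16 fits with 1 sample left out.

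Stress kinases gave 2 lower calls of 9 antibodies in their list, beside 13.3% of all antibodies, and 1 of the 2 (MAP2K4) was lost in 19 of 25 alternatives. MAPK8_P-T183/Y185, the activating site of the kinase JNK1, ranged from 0.286 to 0.561 in the Ctnnb1 tumors and gave 0.794, 0.891 and 0.670 in the Ha-ras tumors. It was 1.73-fold lower with no overlap (log2 -0.79 ± 0.18, limma adjusted p = 0.00447), where total MAPK8 gave -0.09 ± 0.21. MAP2K4, a kinase that phosphorylates JNK, was 1.22-fold lower (log2 -0.29 ± 0.10, adjusted p = 0.0472) with 0.510 to 0.692 against 0.758, 0.725 and 0.831. Its activating site gave -0.42 ± 0.14 and just missed the threshold (adjusted p = 0.0518). MAP3K7 (TAK1), a kinase upstream of both JNK and NF-kB that was in no list, gave 1.83 to 2.62 against 2.57, 2.69 and 3.01 (log2 -0.32 ± 0.11, adjusted p = 0.0472). The groups overlapped, and it was dim in all 7 Ctnnb1 and 2 of 3 Ha-ras tumors, so no fold is given. With 1 sample left out, MAP2K4 was lost in 12 and MAP3K7 in 15 of 16 fits.

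Among 7 antibodies to hepatocyte and energy regulators, 3 were lower and 4 did not pass, where 13.3% of all 158 were lower. The activating site of the energy sensor AMPK (PRKAA1_P-T172) ranged from 1.39 in tumor 7 to 3.92 in tumor 6, with a median of 2.67, in the Ctnnb1 tumors. The Ha-ras tumors gave 6.26, 6.06 and 4.70, all above the Ctnnb1 tumors. The site was 2.27-fold lower (log2 -1.18 ± 0.25, limma adjusted p = 0.00254), while total PRKAA1 gave 0.09 ± 0.14. HNF4A, a transcription factor that maintains hepatocyte identity, gave 2.02 to 2.78 against 3.53, 3.49 and 3.15 and was 1.40-fold lower (log2 -0.49 ± 0.11, adjusted p = 0.00442). It was lost with scaling to the Alexa647 rows (-0.30, adjusted p = 0.128) and without centring (-0.22, adjusted p = 0.212). PPARA_2, against a nuclear receptor of fatty acid oxidation, was 1.26-fold lower (log2 -0.34 ± 0.10, adjusted p = 0.0257), with Ha-ras tumor 2 at 2.36 next to the highest Ctnnb1 tumor at 2.34, and was lost without Ha-ras tumor 3 (adjusted p = 0.214). PPARA_1 (0.00 ± 0.14) and PPARA_3 (0.09 ± 0.09) did not pass. PPARA_3, dim in all 3 Ha-ras tumors, passed as higher without centring (0.36, adjusted p = 0.0412) and with the blank subtracted (0.42, adjusted p = 0.0193).

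The last call was HDAC6, a cytoplasmic deacetylase of tubulin. HDAC6 was the only call among 11 antibodies to chromatin and deacetylase proteins, where 13.3% of all antibodies were lower. It gave 0.155 to 0.255 against 0.254, 0.408 and 0.337 (log2 -0.70 ± 0.22, limma adjusted p = 0.0373), was dim in 5 Ctnnb1 tumors and 1 Ha-ras tumor, overlapped between the genotypes, and was lost in 6 of 16 fits with 1 sample left out (without Ctnnb1 tumor 1, 2, 3 or 4 or Ha-ras tumor 2 or 3, adjusted p up to 0.173). Of all antibodies 19.0% passed in either direction. None passed among 9 to growth factor receptors, 6 to adhesion and cytoskeletal proteins, 5 to apoptosis and p53 proteins and 10 to cell cycle proteins. Their median log2 differences were -0.10, -0.13, -0.29 and -0.10, where that of all antibodies was -0.11. UGT1A1, a glucuronidating enzyme that was the sole member of the conjugation list, gave 0.53 ± 0.27 and did not pass. Over the 50 phosphorylation sites 13 were lower and none was higher, beside 13.3% and 5.70% of all antibodies, and their median log2 difference was -0.21.

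Sites were also tested relative to their total protein, which separates a difference in phosphorylation from a difference in the amount of protein. Of 45 pairs of a site and its total, 10 (22.2%) passed, 8 lower and 2 higher in the Ctnnb1 tumors, and 17 had an unadjusted p under 0.05. Phosphorylated ERK1 was 4.25-fold lower relative to MAPK3 (log2 -2.09 ± 0.20, limma adjusted p = 7.74e-07). PRKAA1_P-T172 was 2.41-fold, RPS6KA1_P-T573 1.85-fold, MAP2K1_P-S217/S221 1.67-fold (adjusted p = 0.0491) and MAPK8_P-T183/Y185 1.63-fold lower relative to their totals. MTOR_P-S2448 was lower too (1.45-fold). The pair of PDK1_P-S241 also passed, but total PDK1 was dim in all 3 Ha-ras and 4 of 7 Ctnnb1 tumors, so no fold is given and the ratio does not separate the site from the amount of protein. The ratio was higher for STAT3_P-Y705 (1.80-fold, log2 0.85 ± 0.15, adjusted p = 0.00117) and JAK1_P-Y1022/Y1023 (1.37-fold, log2 0.45 ± 0.13, adjusted p = 0.0188). For both, the site itself did not pass (-0.03 ± 0.08 and 0.12 ± 0.11) and the total was lower. The JAK1 site passed as higher without centring (0.39, limma adjusted p = 0.0307). The call of total JAK1 was lost in 20 of 25 alternatives. STAT3_P-S727 gave 0.16 ± 0.17 relative to STAT3, the site and its total being lower to a similar extent.

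Of the 10 pairs, 7 were lost without Ha-ras tumor 2. The 3 that passed without it were those of MAPK3_P-T202/Y204, RPS6KA1_P-T573 and STAT3_P-Y705. The MAP2K1 pair was lost in 13 of 16 fits with 1 sample left out (adjusted p up to 0.401) and turned its sign under quantile normalization (log2 1.59, adjusted p = 0.000175), as did that of RPS6KA1_P-T573 (0.17, adjusted p = 0.656).

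**Figure D3:**
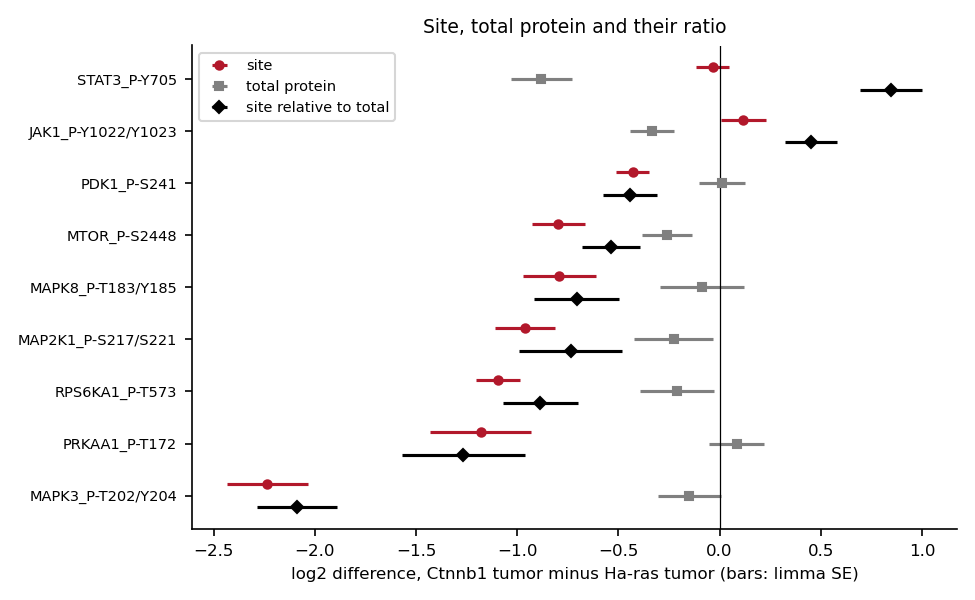
Log2 difference between Ctnnb1 and Ha-ras tumors with limma's standard error, for the site, the total protein and the site relative to the total, in 9 of the 10 pairs that passed. In the 7 lower pairs shown the site lies below its total, while for STAT3_P-Y705 and JAK1_P-Y1022/Y1023 the site lies near 0 and the total is lower.

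Since PB goes together with the genotype, the control livers of the same arms, which share no sample with the tumors, were set beside the tumor difference. In PB against no-PB control liver, 3 of 158 antibodies (1.90%) passed, all higher, and all of them were among the 9 higher calls of the tumors (CYP2C8, POR and CYP2B6_1). At an unadjusted p under 0.05 there were 14. All 9 enzyme calls had a positive control difference, from 0.75 to 3.04 with a median of 1.96, where 100 of all 158 antibodies were positive. CYP2C8 gave 11.7, 15.6 and 16.3 in the PB control livers and 2.86, 2.91 and 2.01 in those without PB, a log2 difference of 2.49 ± 0.25 against 3.59 between the tumors. For CYP2B6_1 the control difference of 1.61 ± 0.29 was about as large as the tumor difference of 1.50. That of POR was 1.25 ± 0.25, a call lost under quantile normalization (0.37, adjusted p = 0.31) and when control liver 5 or 6 with PB, or 3 without it, was left out (highest adjusted p 0.0652). That of CYP3A4_2 was 1.96 ± 0.66. CYP1A2_1 gave 1.99 ± 0.75, GLUL 2.15 ± 1.45, CYP2E1_1 0.90 ± 0.43 and CYP2E1_2 0.75 ± 0.51, none of which passed. None of the 9 antibodies passed in the Ctnnb1 tumors against the PB control livers. The log2 differences there included 0.10 for CYP1A2_1, -0.43 for CYP2E1_1, -0.48 for CYP2E1_2 and 1.53 for GLUL. The Ha-ras tumors were below the no-PB control livers for CYP2E1_2 (-2.62), CYP2E1_1 (-1.925), CYP2C8 (-1.42), CYP2B6_3 (-4.99) and POR (-1.05), each past the threshold. CYP1A2_1 (-1.77), GLUL (-3.57), CYP3A4_2 (-0.90) and CYP2B6_1 (-0.07) did not pass there. The cause was not tested.

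None of the 21 lower calls passed in the control livers. There, 7 differences were positive and 14 negative, beside 100 positive and 58 negative of all 158 antibodies. The median of the 21 was -0.05 against -0.72 between the tumors, and that of all antibodies in the control livers was 0.06. Phosphorylated ERK1 gave 2.62, 2.34 and 2.66 in the PB and 3.10, 2.76 and 2.97 in the no-PB control livers, all below the lowest Ha-ras tumor at 7.22 and close to the Ctnnb1 tumors. RPS6KA1_P-T573 gave 2.46, 2.39 and 2.32 with PB and 2.85, 2.40 and 2.89 without it, again below the Ha-ras tumors. The 3 Ha-ras tumors thus stood above both kinds of control liver for these sites.

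The difference between the tumor and the control comparison was tested as an interaction, and 8 of 158 antibodies (5.06%) passed, 1 higher and 7 (4.43%) lower, with 28 at an unadjusted p under 0.05. The higher was CYP2B6_3 (log2 5.15 ± 1.12, limma adjusted p = 0.0116), which rests on 2 Ha-ras tumors, 1 of them dim. Its size was 2.72 without Ha-ras tumor 2 and 7.58 without Ha-ras tumor 1. The lower were MAPK3_P-T202/Y204 (-2.02 ± 0.31, adjusted p = 0.00179), RPS6KA1_P-T573 (-0.92 ± 0.17, adjusted p = 0.00694), MAP2K1_P-S217/S221 (-1.06 ± 0.23), RPS6KA3_P-T353/T356 (-1.04 ± 0.22), STAT3_P-S727 (-1.07 ± 0.23), STAT3 (-0.91 ± 0.23, adjusted p = 0.0331) and PDK1_P-S241 (-0.48 ± 0.13, adjusted p = 0.0385). Among the pairs of a site and its total, 2 of 45 (4.44%) passed, MAPK3_P-T202/Y204 (-1.75, adjusted p = 0.00154) and STAT3_P-Y705 (0.91, adjusted p = 0.0361). Of the 8, MAPK3_P-T202/Y204 alone passed under all 24 alternatives run for this contrast (adjusted p up to 0.0449). STAT3 and PDK1_P-S241 were lost in 7 and 11 of the fits with 1 sample left out. With scaling to the Alexa647 rows STAT3_P-S727, RPS6KA3_P-T353/T356 and RPS6KA1_P-T573 were lost (each adjusted p = 0.113), STAT3_P-S727 also without centring, and STAT3_P-S727 and RPS6KA3_P-T353/T356 with the blank subtracted. The replicate number as a block also ended the calls of CYP2B6_3, MAP2K1_P-S217/S221 and STAT3_P-S727 (each adjusted p = 0.095) and that of RPS6KA1_P-T573. For the other enzyme calls the interaction did not pass. Its log2 size was 1.10 ± 0.33 for CYP2C8 (adjusted p = 0.0742), 2.14 ± 0.67 for CYP2E1_2 (adjusted p = 0.0895), 1.50 ± 0.56 for CYP2E1_1, 5.11 ± 1.92 for GLUL, 0.67 ± 0.33 for POR and -0.11 ± 0.38 for CYP2B6_1. A larger difference in the tumors than in the control livers was therefore not shown for these enzymes, nor was an equal one. The same holds for the lower calls outside the 7 of 21 whose interaction passed. Among them were PRKAA1_P-T172 (limma adjusted p = 0.1425), GSK3B_P-S9 (0.2477), MTOR_P-S2448 and MAPK8_P-T183/Y185 (each 0.0895).

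**Figure D4:**
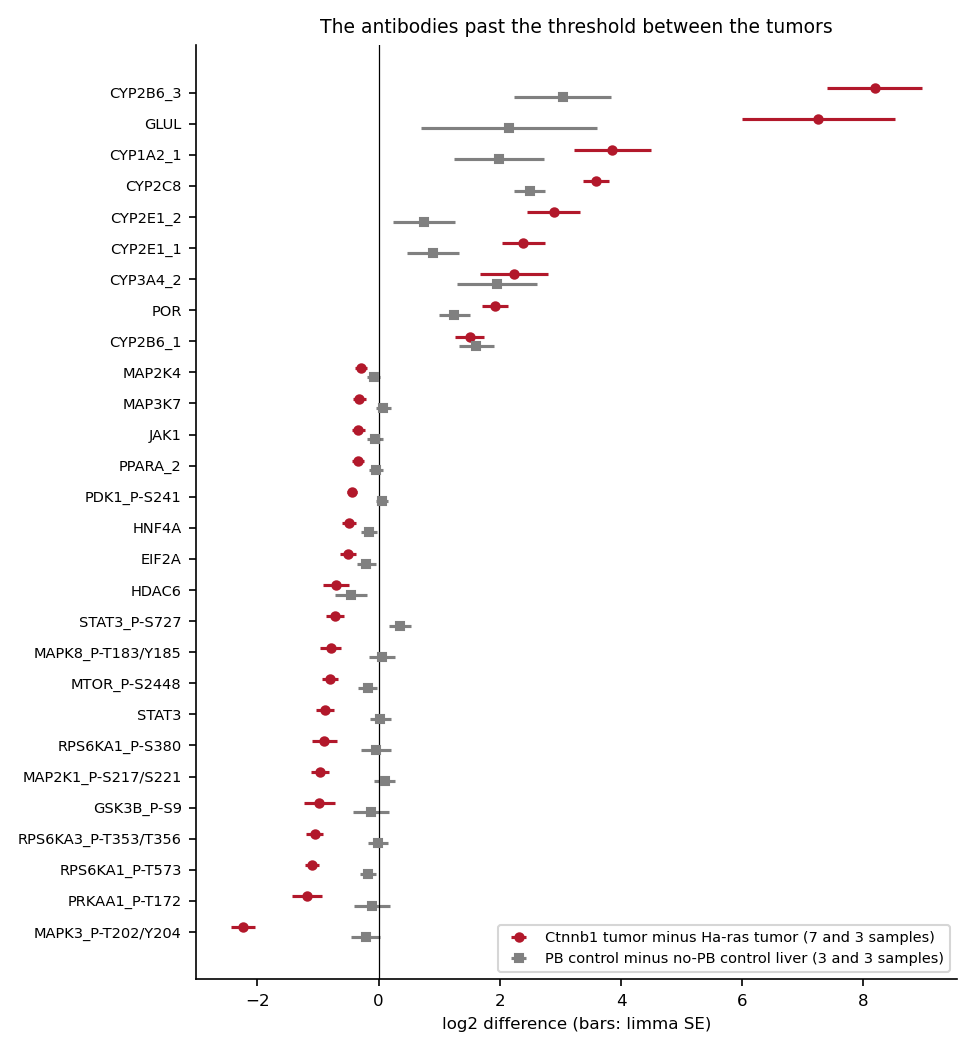
Log2 differences with limma's standard error for 28 of the 30 antibodies past the threshold between the tumors, as Ctnnb1 minus Ha-ras tumor (7 and 3 samples) and as PB minus no-PB control liver (3 and 3 samples). The enzymes lie above 0 in both comparisons, while the control differences of the lower antibodies lie on both sides of 0, from -0.45 (HDAC6) to 0.35.

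The direction of small differences depended on the scale. Over all antibodies the log2 difference had a median of -0.11 when centred on the median antibody, -0.06 with quantile normalization, 0.08 with scaling to the Alexa647 rows of the array and 0.16 with no centring. The calls were 9 higher and 21 lower with centring, 9 and 29 with quantile normalization, 11 and 10 with the Alexa647 rows and 19 and 9 without centring. All 9 enzyme calls passed under all 4 scalings. Of the 21 lower calls, 9 did, namely MAPK3_P-T202/Y204, MAP2K1_P-S217/S221, RPS6KA1_P-T573, RPS6KA3_P-T353/T356, PRKAA1_P-T172, GSK3B_P-S9, MTOR_P-S2448, MAPK8_P-T183/Y185 and STAT3. The other 12 kept their direction and did not pass under at least 1 of the scalings.

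**Figure D5:**
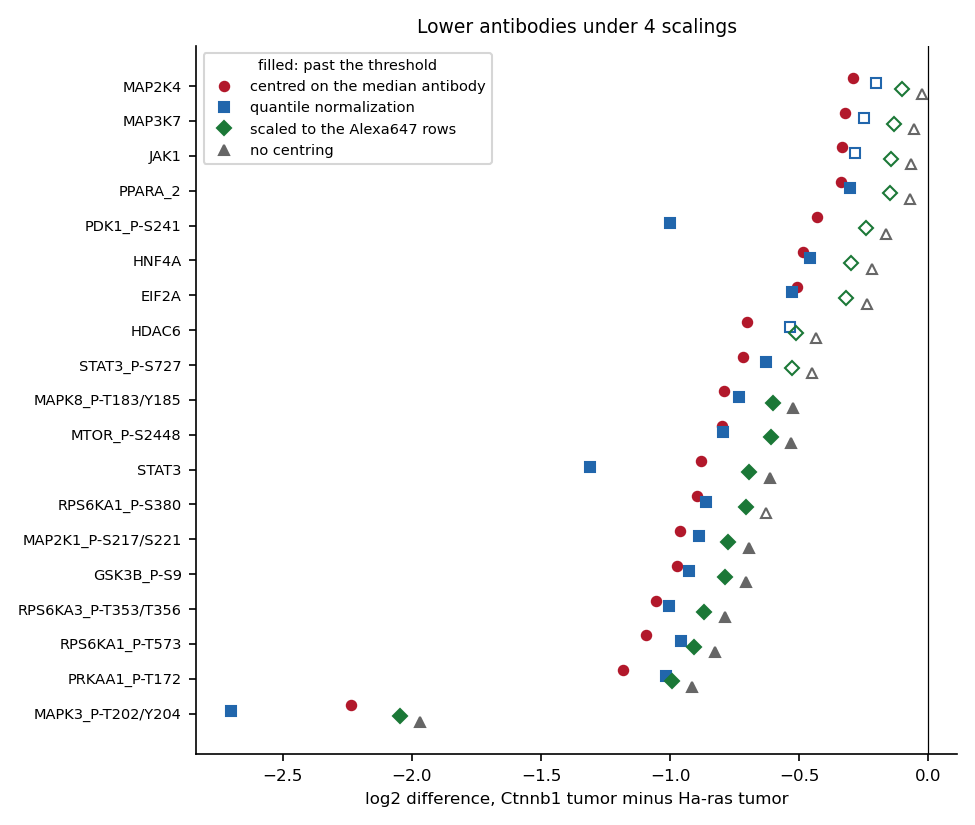
Log2 difference between Ctnnb1 and Ha-ras tumors of 19 of the 21 lower antibodies under 4 scalings of the samples, with filled symbols past the threshold. All points lie below 0, and those without centring lie closest to it, where MAP2K4 reaches -0.02.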

How the data were processed

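Protein lysates of 16 mouse liver samples were read on a reverse-phase protein array. Groups and replicate numbers come from the sample titles. The members and protein lists were chosen with earlier results of these data known. Per the labels' protocols, tissue was lysed in an 8-fold excess of denaturing buffer and signals came from fluorescent secondary antibodies. The deposited sample files give an intensity (relative fluorescence) for 183 rows, 158 antibodies, 19 blanks and 6 Alexa647 rows, and whether they were scaled before deposit is not stated. The authors' deposited table of log2 values for the series is centred within each arm and served only to match antibodies to blanks (146 of 158 matched within 0.01 log2 in at least 12 samples, 145 of them with a blank). The others used the sample's median blank.

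Intensities were log2 transformed and centred on each sample's median antibody, and the 3 values at or below 0 (ACTB in PB control liver 6, GLUL in Ctnnb1 tumor 6 and CYP2B6_3 in Ha-ras tumor 3) were missing. A limma fit of 4 group means was made over all 16 samples (limma 3.58.1 in R 4.3.3, with prior degrees of freedom of 2.65 beside 12 residual ones). It gave the tumor, control and interaction contrasts and those of each tumor group against its control livers. Benjamini-Hochberg adjustment was over 158 antibodies or 45 pairs. Printed p-values are from this fit unless named as exact. The fit was tested on simulated data. No 2 replicates held identical values. Named antibodies are the 30 calls, other antibodies to the same proteins, and those to CTNNB1, HRAS, the kinases of the ERK cascade, AKT1, GLUL, CYP1A2 and CYP2E1. Antibodies to 3 of these proteins, 2 of the calls among them, enter the counts and are not reported here by name. UGT1A1 was named beyond this rule as the sole member of its list. RefSeq's GRCm38.p6 table holds 91 of the 101 protein symbols as mouse genes. Alternatives were 3 other scalings, blank subtraction, non-positive values at the lowest positive signal, array weights, the replicate number as a block, dim antibodies left out, the tumors alone and each sample left out. Leaving out control livers for the tumor calls was chosen after seeing the data.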

Additional observations from a re-analysis of the deposited data

Results flagged for a closer look

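Among the 60 named antibodies in the 7 Ctnnb1 tumors, 3 had a sample far from the others, where chance flags about 1 in 20 groups. The 3 flags are about as many as that rate gives. The antibodies were read in the same tumors and are not independent, so the count cannot tell whether the flags arose by chance. GLUL in Ctnnb1 tumor 6 has no logarithm and could not be flagged. CYP1A2_1 was 1.92 in Ctnnb1 tumor 6, with the others between 18.3 and 37.2. GLUL was 15.3 in Ctnnb1 tumor 7, with the other 5 tumors that have a logarithm between 57.9 and 91.6. JAK1_P-Y1022/Y1023 was 0.778 in Ctnnb1 tumor 2, with the others up to 1.13.

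The tumor difference departed from the control liver difference by the interaction test for 8 antibodies and 2 site-to-total pairs. The log2 sizes were 5.15 for CYP2B6_3, -2.02 for MAPK3_P-T202/Y204, -1.07 for STAT3_P-S727, -1.06 for MAP2K1_P-S217/S221, -1.04 for RPS6KA3_P-T353/T356, -0.915 for RPS6KA1_P-T573, -0.911 for STAT3 and -0.483 for PDK1_P-S241. The pairs were MAPK3_P-T202/Y204 relative to MAPK3 (-1.75, limma adjusted p = 0.00154) and STAT3_P-Y705 relative to STAT3 (0.908, adjusted p = 0.0361). The second pair was lost in 11 of the 16 fits with 1 sample left out (adjusted p up to 0.141).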

How the results depend on the processing

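Of the 30 calls, 16 passed under all 25 alternatives (8 higher and 8 lower), 21 with any 1 sample left out, and none reversed. With 1 sample left out, the tumor calls were 24 to 35, the pairs 3 to 11, the interaction calls 6 to 11 and the control liver calls 2 to 3. The pairs were 3 without Ha-ras tumor 2. With the replicate number as a block there were 35 tumor calls (10 higher and 25 lower), 6 pairs, 2 interaction calls and 0 control liver calls. Over 155 antibodies the deviations of same-numbered tumors had r = -0.177, -0.158 and -0.23. Ctnnb1 tumors and PB control livers 4, 5 and 6 had r = 0.0951, 0.128 and 0.225, and Ha-ras tumors and no-PB control livers 1, 2 and 3 had r = 0.611, 0.0928 and 0.00615. Within each arm these values were all positive, but differently numbered samples of an arm reached similar values in part. Ctnnb1 tumors and PB control livers of different number had r from -0.297 to 0.29. Ha-ras tumors and no-PB control livers of different number had r from -0.496 to 0.384. Whether same-numbered samples came from the same animal is not known. The numbers were not taken to pair the samples in the main fit. The block joined samples of the same number across both arms, so pairing within an arm was not tested. The tumors alone gave 24 calls and 6 pairs. The interaction calls were 3 with the Alexa647 rows, 5 with the blank subtracted and 17 with array weights, and the control liver calls were 5 with no centring. Under quantile normalization the pairs of MAP2K1_P-S217/S221 and RPS6KA1_P-T573 reversed (1.593 and 0.1699). The cause was not tested. A change of sign in results that passed in neither setting occurred 78 times, in 24 antibodies. The signal over background limits what could be seen for the 12 antibodies dim in all tumors, and the 3 Ha-ras tumors limit the precision.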
